A study of Aspergillus luchuensis with 9 samples.

Results

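The genes nearest the chromosome ends were described in Aspergillus luchuensis mut. kawachii, a koji mould of shochu making. They are the nuclear genes whose whole span lay within 100 kb of the first gene start or of the last gene end on their chromosome. There were 621 of them among 12941 genes in all, spread over the 16 ends of 8 chromosomes, and they are compared with the 12276 other nuclear genes, called genes elsewhere. Each end held from 28 genes (left end of chromosome 3) to 48 genes (left end of chromosome 7). The edge used is the outermost gene and not the telomere, because chromosome lengths were not used here. The first gene began at position 186 on chromosome 6 but only at position 13924 on chromosome 3.

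RNA-seq had been done on 9 libraries of this mould, 3 of a control strain, 3 of a hepA deletion strain (ΔhepA) and 3 of a laeA deletion strain (ΔlaeA). All were poly(A)-enriched RNA in stranded libraries, and expression was deposited as FPKM (fragments scaled by the length of the transcript and by the total mapped in the library). The labels give a genotype and no marker, medium, age or number of clones for any strain. Whether replicates were separate cultures is not stated, so the p-values speak only of the spread among the libraries, which may be technical. In bulk RNA, a transcript present in fewer hyphae and a transcript at a lower level in each cannot be told apart.

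In fungi the regions beside the telomeres are often packed as heterochromatin, in which histone H3 carries a repressive methyl mark that heterochromatin protein 1 binds. HepA is the Aspergillus form of heterochromatin protein 1. LaeA is a nuclear methyltransferase-like regulator of secondary metabolism, first studied in Aspergillus nidulans. Subtelomeres of filamentous fungi are also known for fast gene turnover, for genes without a close relative in other species and for some secondary metabolite clusters. The design allows a comparison of terminal genes with the rest of the genome in each strain, and of each deletion strain with the control.

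Libraries did not separate by strain alone. On the first principal component (39.1% of the variance) ΔhepA replicate 2 and ΔlaeA replicates 2 and 3 lay apart from the other 6, and mitochondrially encoded genes took 2.85% to 7.0% of their FPKM sum against 1.09% to 1.66%. Relative depth, read from the steps between low values, ran from 0.519 (ΔlaeA replicate 3) to 1.03 of that of control replicate 3, so low genes had the least precise values in ΔlaeA replicate 3 and then in replicate 2 (0.66). The reference holds no gene with the symbol hepA or laeA, so the deleted genes were not checked by name. The 10 asexual development markers found, which would mark conidiophores and conidia, summed to 524 to 570 FPKM in the controls, 545 to 758 in ΔhepA and 690 to 847 in ΔlaeA. None of the 10 was listed at 0 in any library. Most of that sum was fluG, at means of 352, 514 and 526 FPKM in control, ΔhepA and ΔlaeA, which acts upstream in asexual development of Aspergillus nidulans. Of these markers 0 changed in ΔhepA by limma and 1 rose in ΔlaeA, CON10, a conidiation gene of Neurospora (41.7, 43.6 and 136 FPKM). Without adjustment 1 and 3 of the 10 were under 0.05, where 10.4% and 21.6% of all genes tested were. Most markers did not follow the sum: 6 were lower and 4 higher in ΔhepA (median log2 difference -0.13, against -0.15 for all genes tested), and 7 lower and 3 higher in ΔlaeA (-0.60 against -0.21). The conidiophore regulator abaA stood at 23.7, 20.6 and 5.54 FPKM (limma adjusted p = 0.0587 in ΔlaeA) and the spore regulator vosA at 19.2, 20.3 and 8.04 (0.239), neither called. The part of these library differences in the results below was not tested.

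Genes near the ends were shorter and less often characterised than genes elsewhere, and were packed slightly more densely. They numbered 38.8 per 100 kb against 34.5, with a median length of 1121 bases against 1294 and nearly equal median gaps between genes (814 and 808 bases). The reference gave a symbol to 17 of 621 (2.74%) against 18.0% elsewhere. Of the 621, 617 were protein-coding and 4 were tRNA genes. Transcription ran toward the chromosome end for 328 (52.8%), against 50.2% elsewhere.

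Terminal genes were expressed at a far lower level than the rest of the genome in all 9 libraries. Their median level was 1.10, 0.94 and 0.80 FPKM in the 3 control libraries, 0.84, 0.97 and 0.96 FPKM in ΔhepA, and 0.72, 1.07 and 0.65 FPKM in ΔlaeA. The ranges of the 3 strains overlapped. Elsewhere the median was 12.6 ± 1.0 FPKM in the control (SD, n = 3). On the log2(FPKM + 1) scale the control medians were 0.96 ± 0.11 near the ends and 3.76 ± 0.11 elsewhere, the ΔhepA medians 0.94 ± 0.05 and 3.52 ± 0.16, and the ΔlaeA medians 0.85 ± 0.17 and 3.41 ± 0.24 (SD, n = 3 each). The difference, ends minus elsewhere, lay between -2.89 and -2.35 in the 9 libraries. It is a description, because genes of one region are not replicates and no test over them was made.

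Many terminal genes had almost no signal. A gene is called silent in a strain when it was under 1 FPKM in each of its 3 libraries. In the control 251 of 621 terminal genes were silent (40.4%), against 19.7% elsewhere. In ΔhepA 262 were silent (42.2%, elsewhere 20.1%) and in ΔlaeA 266 (42.8%, elsewhere 19.6%). In single libraries 49.3%, 50.4% and 52.7% of terminal genes were under 1 FPKM in the controls, 52.5%, 50.9% and 50.1% in ΔhepA and 53.5%, 49.3% and 55.4% in ΔlaeA. These shares overlapped between strains, and were 2.0 to 2.13 times the share elsewhere in each of the 9 libraries. Across the whole study 201 terminal genes (32.4%) stayed under 1 FPKM in all 9 libraries, against 14.8% elsewhere, and 72 (11.6%) were listed at 0 throughout, against 6.30%. At the other extreme 214 (34.5%) were at 1 FPKM or more in all 9. At these depths an entry under 1 FPKM rests on few fragments, so silent means low or not detected, not absent.

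The silent share was higher near the ends both among genes with a symbol and among those without. Among genes without a symbol 41.1% were silent near the ends in the control and 23.4% elsewhere. Among genes with a symbol it was 3 of 17 (17.6%) against 2.90%.

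Within the 100 kb, the silent share was highest at the edge and lower with distance, in steps of 25 kb. In the outermost 25 kb 60.5% of 147 genes were silent in the control, 63.3% in ΔhepA and 63.3% in ΔlaeA. None of those 147 genes had a symbol, and their median level was 0.26 ± 0.12 on the log2(FPKM + 1) scale in the control (SD, n = 3). From 25 to 50 kb 41.8%, 43.7% and 41.1% of 158 genes were silent in the control, ΔhepA and ΔlaeA. From 50 to 75 kb the shares were 36.8%, 35.5% and 38.2% of 152 genes. From 75 to 100 kb they were 24.4%, 28.0% and 30.5% of 164 genes, and the control level there was 2.37 ± 0.21. All 3 strains thus had their highest share in the outermost class and their lowest of the 4 terminal classes in the innermost.

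**Figure D1:**
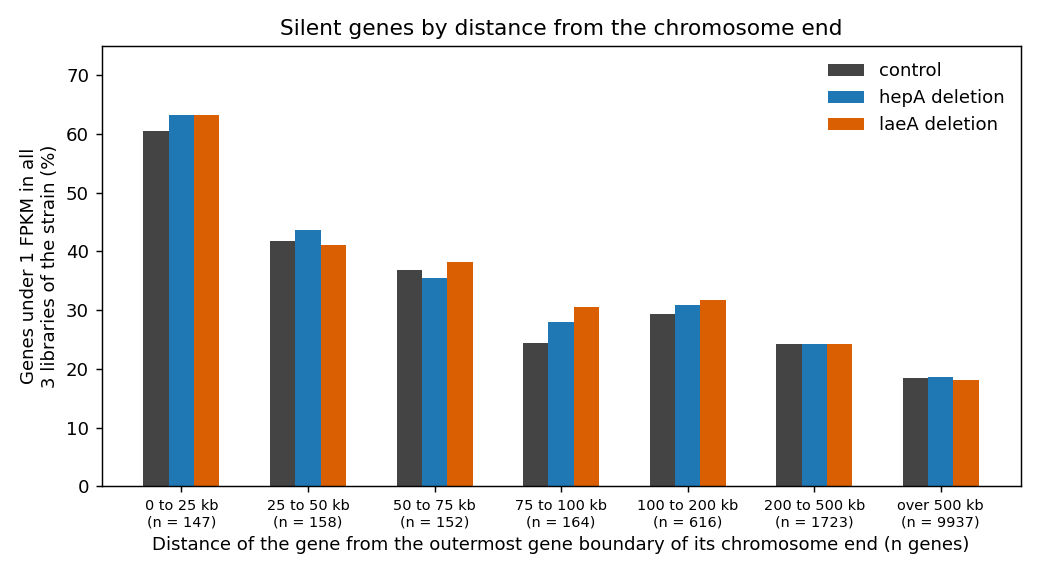
Percentage of genes under 1 FPKM in all 3 libraries of the control (grey), ΔhepA (blue) and ΔlaeA (orange), by distance from the outermost gene boundary of the chromosome end. Bars start at 0 and each is 1 value per strain, without an error bar; the share is 60.5% to 63.3% in the outermost 25 kb and 18.1% to 18.7% beyond 500 kb.

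The difference did not stop at 100 kb. From 100 to 200 kb 29.4% of 616 genes were silent in the control, from 200 to 500 kb 24.2% of 1723, and beyond 500 kb 18.4% of 9937. The control level was 2.24 ± 0.24, 2.85 ± 0.13 and 3.96 ± 0.12 in these classes. The class from 75 to 100 kb thus differed from that of 100 to 200 kb by less than the replicate SD in level. The silent share did not fall further there. From 100 to 200 kb it was above that from 75 to 100 kb in all 3 strains (30.8% in ΔhepA and 31.7% in ΔlaeA). At the left end of chromosome 7, which had the most members, the 2 genes just inside the limit were AKAW2_70047A (1020 ± 16.4 FPKM in the control) and AKAW2_70048A (47.1 ± 8.23 FPKM). The 2 just outside were AKAW2_70049A (67.1 ± 3.94 FPKM) and AKAW2_70050S (55.5 ± 14.7 FPKM).

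**Figure D2:**
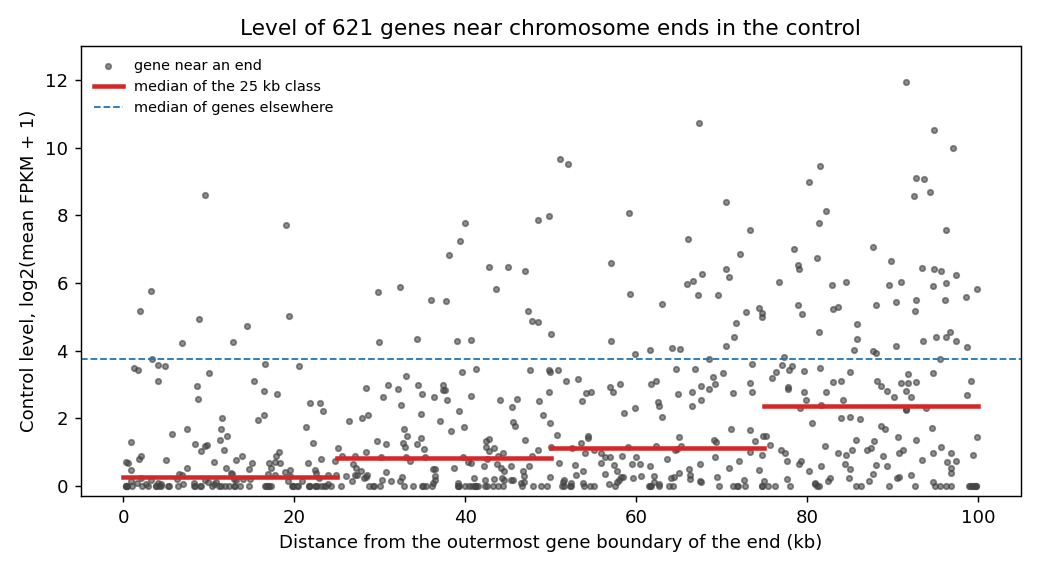
Control level of each of the 621 terminal genes, as log2 of the mean FPKM of 3 libraries plus 1, against distance from the outermost gene boundary in kb. Points are genes, red bars the medians of the 25 kb classes (0.26 in the outermost, 2.37 in the innermost) and the dashed line the median of genes elsewhere (3.76); single genes reach high levels at most distances.

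Every end was quieter than the rest of the genome, but the ends differed from each other. In each of the 3 strains all 16 ends had a higher silent share than genes elsewhere. In the control the share ran from 21.4% of 28 genes at the left end of chromosome 3 to 62.2% of 45 genes at the left end of chromosome 2. The left end of chromosome 8 followed with 59.4% of 32 genes. These 2 quietest ends had control levels of 0.44 ± 0.11 and 0.30 ± 0.12 on the log2(FPKM + 1) scale, against 2.28 ± 0.31 at the left end of chromosome 3 (SD, n = 3). The levels of these extremes thus differed by more than their replicate SDs. The other 13 ends lay between 28.9% and 47.5%.

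The silent share of single ends lay above or below the control in the deletion strains. In ΔhepA the silent share was above that of the control at 10 ends, below it at 4 and equal at 2. In ΔlaeA it was above at 10, below at 5 and equal at 1. The lowest value relative to the control was at the right end of chromosome 6, 30.8% in ΔhepA against 43.6% in the control. The highest relative to it in ΔhepA were at the right end of chromosome 2, 54.1% against 40.5%, and the left end of chromosome 1, 55.0% against 42.5%. Each of these 3 steps was a matter of 5 genes.

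**Figure D3:**
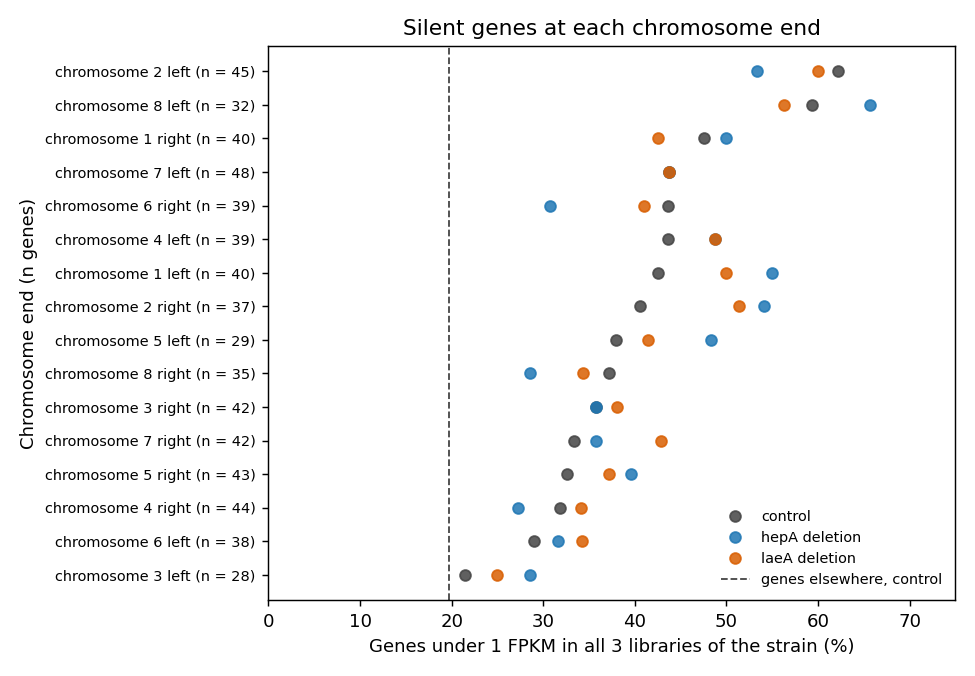
Percentage of genes under 1 FPKM in all 3 libraries of a strain at each of the 16 chromosome ends, ordered by the control (grey) with ΔhepA in blue and ΔlaeA in orange; points that coincide hide each other. The dashed line is the control value elsewhere (19.7%), and every point lies to its right.

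The outermost gene itself was usually quiet. Of the 16 outermost genes 7 were under 1 FPKM in all 9 libraries, 3 were listed at 0 in all 9 (AKAW2_20001S, AKAW2_41341A and AKAW2_70001S), and 5 were expressed enough to be tested. AKAW2_30001S, outermost on the left of chromosome 3, was the highest, at 33.5 to 37.5 FPKM in the controls, 32.7 to 39.2 in ΔhepA and 44.7 to 60.5 in ΔlaeA. Its groups overlapped between control and ΔhepA, and the ΔlaeA libraries were all above the controls (log2 difference 0.56, limma adjusted p = 0.228). Going inward from each end, the first gene at 1 FPKM or more in all 9 libraries began at a median of 7754.5 bases.

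At a few ends the first gene at 1 FPKM or more in all 9 libraries lay much further in. At the left end of chromosome 4, 17 genes and 48003 bases preceded the first such gene, AKAW2_40018S (4.27 to 15.4 FPKM over the 9 libraries). At the left end of chromosome 8, 11 genes and 46708 bases preceded AKAW2_80012A (42.6 to 113 FPKM). The genes passed over were not all silent. Counted from the edge, 3 genes in a row were under 1 FPKM in all 9 libraries on chromosome 4. On chromosome 8 it was 0, since the outermost gene, AKAW2_80001S, stood at 3.11 to 14.29 FPKM in the controls. The longest unbroken run under 1 FPKM in all 9 libraries was 6 genes at the right end of chromosome 1, AKAW2_12098S to AKAW2_12093A, spanning 12168 bases. Within the 100 kb, blocks of genes under 1 FPKM in all 9 libraries were thus no longer than 6 genes. Genes at 1 FPKM or more in at least 1 library stood between them. Runs of genes silent in a single strain were not measured.

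Some terminal genes were among the well-expressed genes of the mould. In the control 5.05 ± 0.246% of terminal genes were at 100 FPKM or more, against 16.2 ± 1.13% elsewhere (SD, n = 3), and 33 members had a mean of at least 100 FPKM over the 9 libraries. The highest was och3 on the right of chromosome 8 (3954542 to 3955192, plus strand), at 3607, 4158 and 3972 FPKM in the controls, 5223, 4611 and 4937 in ΔhepA and 5327, 3390 and 3462 in ΔlaeA. The ΔhepA libraries were all above the controls and the ΔlaeA libraries lay on both sides of them. Its log2 difference was 0.33 in ΔhepA (limma adjusted p = 0.648) and 0.02 in ΔlaeA (0.961), neither called.

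High genes, with a mean of at least 100 FPKM over the 9 libraries, stood next to each other at 4 ends, in rows of 3 or more at 2 of them. och3 ended a row of 4 neighbours from AKAW2_81372A to AKAW2_81375S (3948592 to 3955192) whose means over the 9 libraries ran from 102 to 4299 FPKM. At the left of chromosome 7, AKAW2_70045A to AKAW2_70047A (91674 to 97482) had means of 340 to 873 FPKM. None of these 7 genes was called in either deletion strain, and both rows lay in the innermost 25 kb class. Pairs of high genes stood at the left of chromosome 3, AKAW2_30017A and AKAW2_30018A (93393 to 95321, means of 217 to 491 FPKM), and at the left of chromosome 5, AKAW2_50018A and AKAW2_50019S (53010 to 56284, means of 179 to 696 FPKM).

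The 621 genes are 4.80% of all genes and took 1.37%, 1.42% and 1.36% of the FPKM sum in the controls, 1.57%, 1.51% and 1.39% in ΔhepA, and 1.2%, 1.21% and 1.23% in ΔlaeA. The ΔlaeA shares were below every control share, and the ΔhepA shares overlapped the control ones. These shares rested on few genes, since the top 10 members held 50.02% to 67.3% of the members' sum. Without the top 3, the shares were 0.889% to 0.961% in the controls, 0.841% to 0.976% in ΔhepA and 0.759% to 0.929% in ΔlaeA, and all 3 ranges overlapped.

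One of those 3 genes was AKAW2_10025A on the left of chromosome 1 (66743 to 67747, minus strand). It stood at 866, 2218 and 2017 FPKM in the controls, 3547, 1444 and 1727 in ΔhepA and 698, 270 and 329 in ΔlaeA. All ΔlaeA libraries were below all controls, but it did not pass the test (log2 difference -1.99 ± 0.47 SE, limma adjusted p = 0.0680). In ΔhepA the groups overlapped (0.40, adjusted p = 0.822). The ΔlaeA difference passed in 2 alternatives, with TPM scaling (adjusted p = 0.0462) and without ΔlaeA replicate 1 (0.0127). With the 3 libraries apart left out it was -1.17 (0.529).

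The other highest genes of their ends ranged from 74.5 to 903 FPKM in their mean. Some varied more between replicates than between strains. AKAW2_61373A, the highest at the right of chromosome 6, stood at 14.7, 144 and 15.1 FPKM in the controls, 26.1, 675 and 123 in ΔhepA and 13.52, 209 and 358 in ΔlaeA. Its groups overlapped in both comparisons (adjusted p = 0.649 and 0.486).

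Of the 17 terminal genes with a symbol 1 was called, GIT1_1, which is described below. The 8 highest included dbp5, named after a helicase of mRNA export in yeast, gel1, after a glucanosyltransferase of the Aspergillus fumigatus cell wall, and NEG1, after a Neurospora endo-beta-1,6-glucanase. dbp5 stood at 107 ± 38.0 FPKM in the control, 73.5 ± 12.1 in ΔhepA and 74.1 ± 14.02 in ΔlaeA (SD, n = 3). gel1 stood at 84.7 ± 39.5, 38.6 ± 20.7 and 47.8 ± 15.9 FPKM, and NEG1 at 14.8 ± 5.60, 28.1 ± 22.7 and 21.8 ± 17.8. None of the 3 passed the test (limma adjusted p = 0.365 to 0.994). och4 stood at 27.6 ± 12.3, 42.1 ± 14.02 and 112 ± 71.7 FPKM, URG1_4 at 126 ± 44.7, 142 ± 52.9 and 250 ± 150, and WWM1_2, named after a yeast WW-domain protein, at 157 ± 41.3, 139 ± 47.5 and 194 ± 91.0. These 3 were not called either (adjusted p = 0.136 to 0.943), and for och4 and URG1_4 the high ΔlaeA values were those of replicates 2 and 3. Without the 3 libraries apart the ΔlaeA log2 difference of och4 was 0.24 in place of 1.75, and that of URG1_4 was -0.61 in place of 0.77. LEU3, named after the yeast regulator of leucine synthesis, was at 4.83 ± 1.69, 2.91 ± 3.01 and 4.25 ± 0.66 FPKM. ADH1_2 (an alcohol dehydrogenase name in yeast), pmcC and NAT1_3 were silent in all 3 strains.

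Against the control, few terminal genes passed the test in either deletion strain. Tested genes had at least 1 FPKM in at least 3 of 9 libraries, which kept 342 of the 621 (55.1%) and 78.6% of genes elsewhere. The others were too low to test and are described only by their values. In ΔhepA 0 terminal genes rose and 2 fell at a limma adjusted p under 0.05, 0.585% of those tested against a background of 0.32% of all genes tested (0.27% for falls alone). Without adjustment 38 (11.1%) were under 0.05, against 10.4% of all. In ΔlaeA 0 rose and 2 fell, also 0.585%, against a background of 1.09% (0.919% for falls alone), and 77 (22.5%) were under 0.05 without adjustment, against 21.6%. Directly between ΔlaeA and ΔhepA 0 were called by limma (background 0.05%, with 0.02% rising and 0.03% falling), with 47 (13.7%) under 0.05 without adjustment against 9.49%. With 2 calls in each strain, these shares are near the background. Single libraries moved these counts. In ΔhepA 0 terminal genes were called without any 1 ΔhepA library or without ΔlaeA replicate 2, 1 without control replicate 1 or 3 or ΔlaeA replicate 1 or 3, and 4 without control replicate 2. Those 4 were 1.17% of those tested, against 0.550% of all genes tested. In ΔlaeA 0 were called without ΔlaeA replicate 2, 1 without control replicate 1, and 5 without control replicate 2 or ΔlaeA replicate 3. Those 5 were 1.46% of those tested, against 1.62% of all without control replicate 2 and 1.05% without ΔlaeA replicate 3. Without ΔlaeA replicate 1, which leaves the 2 libraries that lay apart, 48 terminal genes (30 higher) and 1601 of all genes were called. These were 14.0% and 16.0% of those tested.

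The 2 called genes were the same in both strains, AKAW2_80001S and GIT1_1, and both strains were compared with the same controls. AKAW2_80001S is the outermost gene at the left end of chromosome 8 (5025 to 6272, plus strand, protein-coding, without a symbol). It stood at 3.11, 12.98 and 14.29 FPKM in the controls, at 0.38, 0.65 and 0.40 in ΔhepA, and was listed at 0 in all 3 ΔlaeA libraries. Both deletion groups lay wholly below the controls. The log2 difference in ΔhepA was -2.70 ± 0.48 SE (limma adjusted p = 0.0485), and in ΔlaeA the adjusted p was 0.0114. The gene met the filter of 1 FPKM in 3 libraries through the 3 controls alone. Once tested it could therefore show only a fall, and its direction is no separate result. The filter at a mean of 5 FPKM left it out, as its mean over the 9 libraries was 3.53. The ΔhepA call was lost in 17 of 19 alternatives (adjusted p = 0.0524 to 0.209) and kept without control replicate 1 and without a mean trend. Leaving out any other library lost it (0.0524 to 0.191). The ΔlaeA call was lost in 3, without ΔlaeA replicate 2 (0.0602), without a filter (0.0616) and without the 3 libraries apart (0.289). In ΔlaeA, with all 3 libraries at 0, lower expression and loss of the gene itself cannot be told apart from these values. In ΔhepA the values were low but above 0 in all 3 libraries, and loss of the gene was not tested. The next genes inward, AKAW2_80002A to AKAW2_80004S, were under 1 FPKM in all 9 libraries, controls included.

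GIT1_1 (AKAW2_31605A, chromosome 3, 4756992 to 4758288), named after a yeast glycerophosphoinositol permease, stood at 222, 77.9 and 269 FPKM in the controls, 29.4, 23.4 and 24.2 in ΔhepA and 29.6, 17.2 and 38.1 in ΔlaeA. Its calls (limma adjusted p = 0.0425 and 0.0238) were lost in 14 and 6 of 20 alternatives. The ΔhepA call was lost without control replicates 1 (0.205) or 3 (0.135), any 1 ΔhepA library (0.113 to 0.155) or ΔlaeA replicate 2 (0.0678), and the ΔlaeA call without control replicates 1 (0.116) or 3 (0.0872) or ΔlaeA replicate 2 (0.127). Without the 3 libraries apart both calls were lost (0.193 and 0.329). Its neighbour AKAW2_31604A, picked with its values known, stood at 12.52, 3.80 and 11.50 FPKM in the controls, 2.61, 1.5 and 2.07 in ΔhepA and 1.56, 2.31 and 0.65 in ΔlaeA. Both groups were below all controls, and neither difference passed the test (adjusted p = 0.203 and 0.0650). The neighbour on the other side, AKAW2_31606A, also picked so, was not low: it stood at 66.6 to 93.1 FPKM in the controls, 79.0 to 113 in ΔhepA and 130 to 314 in ΔlaeA (log2 difference 1.31 in ΔlaeA, adjusted p = 0.0803).

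**Figure D4:**
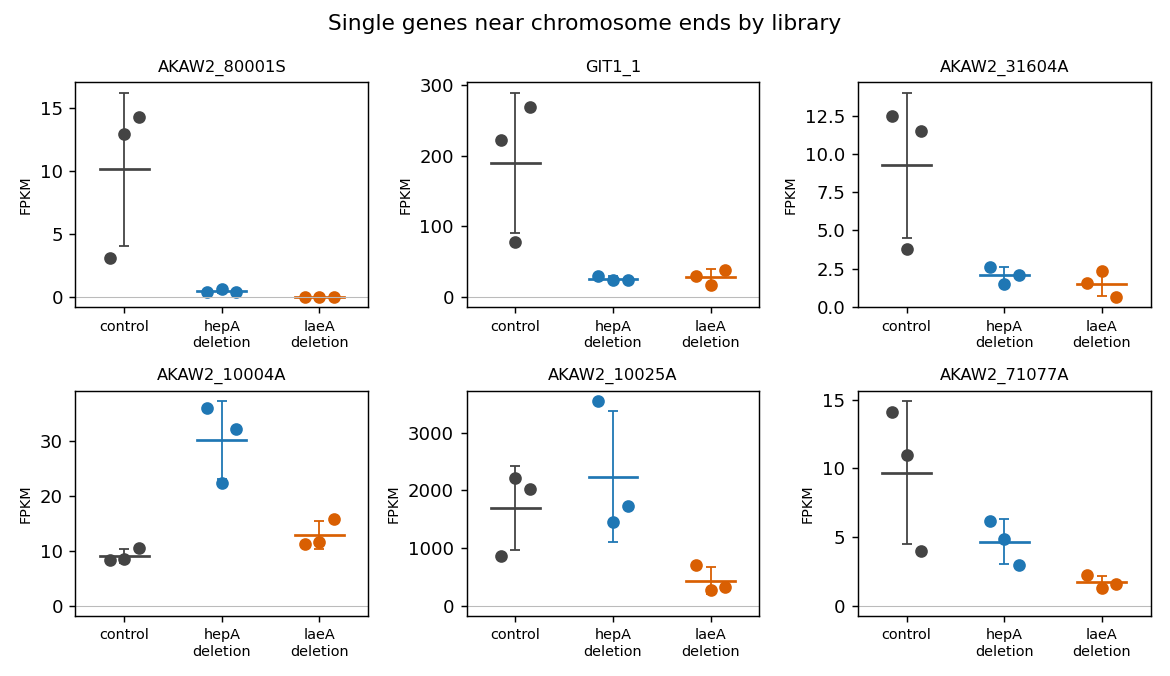
FPKM of 6 terminal genes in the control, ΔhepA and ΔlaeA libraries, each point 1 library, horizontal bars the mean and vertical bars the SD (n = 3). AKAW2_80001S and GIT1_1 are the only terminal genes called in either strain; AKAW2_10004A, AKAW2_10025A, AKAW2_71077A and AKAW2_31604A were not called.

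Other sizeable differences did not pass the test. AKAW2_10004A on the left of chromosome 1 (9892 to 10455, minus strand) stood at 8.25, 8.49 and 10.54 FPKM in the controls, 36.02, 22.32 and 32.07 in ΔhepA and 11.19, 11.51 and 15.73 in ΔlaeA. Every ΔhepA library was above every other library (log2 difference 1.61 ± 0.30 SE, limma adjusted p = 0.0638, and 0.0477 with TPM scaling). AKAW2_61357S and AKAW2_41307S were also higher in all 3 ΔhepA libraries, by 2.12 (adjusted p = 0.183) and 1.22 (0.400). AKAW2_31617S was lower, at 45.7, 21.7 and 17.8 FPKM in the controls, 2.47, 11.4 and 1.69 in ΔhepA and 12.5, 26.6 and 47.2 in ΔlaeA (-2.48 in ΔhepA, adjusted p = 0.152).

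In ΔlaeA, AKAW2_30014S stood at 71.5, 102 and 113 FPKM in the controls and at 65.9, 11.7 and 0.12 in ΔlaeA, the 2 low values being those of libraries that lay apart (log2 difference -3.27, limma adjusted p = 0.148). Without the 3 libraries apart the difference was -0.51 (0.661). AKAW2_71077A, the outermost gene on the right of chromosome 7, stood at 14.1, 10.97 and 3.96 FPKM in the controls, 6.19, 4.85 and 2.93 in ΔhepA and 2.23, 1.25 and 1.58 in ΔlaeA. It was lower in every ΔlaeA library than in every other (-1.86, adjusted p = 0.0681). AKAW2_31597S, AKAW2_81379A and AKAW2_50029A were higher in all 3 ΔlaeA libraries, by 1.56, 1.49 and 1.48 (adjusted p = 0.132, 0.0870 and 0.102).

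Counted over all tested terminal genes, directions were mixed. In ΔhepA 26 (7.60%) had all 3 libraries above the controls, against a background of 5.48%, and 29 (8.48%) had all 3 below, against 14.2%. In ΔlaeA these were 37 (10.8%, background 8.48%) and 50 (14.6%, background 14.5%). Between the strains directly, 40 (11.7%, background 7.58%) were higher and 30 (8.77%, background 4.79%) lower in all 3 ΔlaeA libraries than in all 3 of ΔhepA. A log2 difference of 1 or more upward was found in 14 genes (4.09%, elsewhere 2.36%) in ΔhepA and 28 (8.19%, elsewhere 5.73%) in ΔlaeA. Downward it was found in 28 (8.19%, elsewhere 6.25%) and 51 (14.9%, elsewhere 11.9%). Both directions were slightly more common near the ends than elsewhere. No test of these shares was made.

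The median terminal gene moved little. In ΔhepA the median log2 difference was -0.08, against -0.15 elsewhere, and 147 of 342 were higher and 195 lower. The libraries' own medians were -0.09, -0.16 and 0.02. In ΔlaeA it was -0.0023, against -0.21 elsewhere, and 170 were higher and 171 lower, with library medians of -0.04, 0.14 and -0.20. In both strains the spread between libraries was thus wider than the difference between terminal genes and the rest, and it covered 0. Elsewhere the medians of the same libraries were -0.06, -0.37 and -0.04 in ΔhepA and 0.02, -0.25 and -0.42 in ΔlaeA. Replicate 1 of each deletion strain was thus lower near the ends than elsewhere, and replicates 2 and 3 were higher. With median-ratio scaling, which moves the median of all genes near 0, the terminal medians were 0.04 and 0.16 and those elsewhere 0.01 and -0.03. The higher value near the ends was not found without the 3 libraries apart, which leaves 1 ΔlaeA library (replicate 1). The medians were then -0.05 near the ends and -0.05 elsewhere in ΔhepA. In ΔlaeA they were -0.04 and 0.02, so the order turned in that 1 library.

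Distance from the edge did not order these shifts. In ΔhepA the medians were -0.06, -0.15, -0.00054 and -0.09 from the outermost to the innermost 25 kb class. In ΔlaeA they were -0.28, 0.13, 0.10 and -0.09. The libraries' own medians in the outermost class ran from -0.38 to 0.04 in ΔlaeA, so that class was not separated from 0. From 25 to 50 kb the ΔhepA libraries' medians were all below 0 (-0.24 to -0.014), with 29 genes higher and 57 lower. Those of genes elsewhere were all below 0 in ΔhepA as well (-0.37 to -0.04). The ranges of the other terminal classes covered 0 in both strains.

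Single ends moved more than the whole, in different directions. In ΔhepA the median log2 difference ran from -0.40 at the right of chromosome 1, where 5 of 20 tested genes were higher, to 0.25 at the right of chromosome 8. In ΔlaeA it ran from -0.34 at the left of chromosome 1 to 0.61 at the right of chromosome 3. Under the 3 other scalings and without the 3 libraries apart, 4 ends stayed above 0 and 6 below in ΔhepA, with 6 mixed. In ΔlaeA 5 stayed above, 4 below and 7 were mixed.

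**Figure D5:**
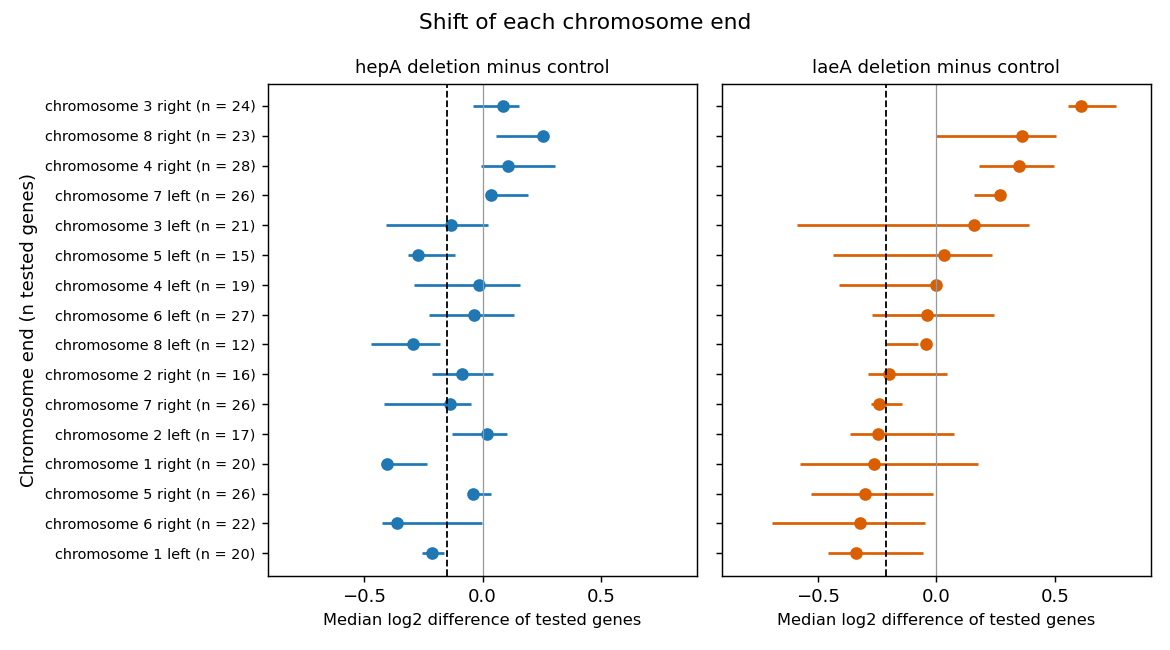
Median log2 difference from the control of the tested genes at each chromosome end, for ΔhepA (left) and ΔlaeA (right). Points are the medians of the fitted differences and bars span the 3 libraries' own medians, which need not enclose the point; the dashed line is the median elsewhere (-0.15 and -0.21), and the right end of chromosome 3 is highest in ΔlaeA at 0.61.

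At the right end of chromosome 3, 18 of 24 tested genes were higher in ΔlaeA, against 37.3% of all genes tested. The libraries' own medians at this end were all above 0, from 0.55 to 0.75. In 7 of the 24 all ΔlaeA libraries were above all controls, and in 3 all were below, GIT1_1 and AKAW2_31604A among them. Over all genes tested the same shares were 8.48% above and 14.5% below. The median stayed between 0.53 and 0.79 under the other scalings and was 0.55 without the 3 libraries apart, where ΔlaeA keeps 1 library. None of the higher genes passed the test. In ΔhepA the same end stood at 0.08, with 13 of 24 higher, against 37.3% of all genes tested. The end was picked as the extreme of 16, which makes its value a description.

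Few terminal genes silent in the control were expressed in a deletion strain. Of the 251 genes silent in the control, 3 (1.2%) were at 1 FPKM or more in all 3 ΔhepA libraries, against 0.784% elsewhere, and 3 (1.2%) in all 3 ΔlaeA libraries, against 1.73%. The genes named in this paragraph were picked by these values. In ΔhepA they were AKAW2_12081A (1.10 to 3.37 FPKM), AKAW2_40007S (1.45 to 1.66) and AKAW2_61374A (2.32 to 4.13). In ΔlaeA they were AKAW2_60032A (1.02 to 2.78 FPKM), AKAW2_61374A (1.04 to 2.42) and AKAW2_81398S (2.69 to 2.96). All stayed low and none was called (limma adjusted p = 0.0890 to 0.653). AKAW2_40007S, 13734 to 14148 on chromosome 4, was listed at 0 in the other 6 libraries, and was above 0 only in the 3 ΔhepA libraries.

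In the opposite direction, of 251 terminal genes at 1 FPKM or more in all 3 controls, 1 (0.398%) was silent in ΔhepA, against 0.449% elsewhere, and 3 (1.2%) in ΔlaeA, against 0.691%. AKAW2_80001S was the one in ΔhepA and among the 3 in ΔlaeA. The other two, AKAW2_30020A (1.17 to 1.24 FPKM in the controls) and AKAW2_70006A (1.15 to 1.43), lay close to the limit.

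The genes matched for heterochromatin and telomere upkeep lay outside the terminal regions and none was called. Of the 22 matched by symbol, 0 were near an end and 0 were called by limma in any comparison, with 1 under 0.05 without adjustment in ΔhepA (background 10.4%) and 2 in ΔlaeA (21.6%). Their median log2 difference was -0.13 in ΔhepA, against -0.15 for all genes tested, and -0.46 in ΔlaeA, against -0.21. In ΔlaeA 17 were lower and 5 higher. The largest difference there was upward, in SWD3, at 87.7 ± 19.4, 152 ± 38.7 and 306 ± 184 FPKM in control, ΔhepA and ΔlaeA. Its log2 difference in ΔlaeA was 1.55 (limma adjusted p = 0.129). clrD, the histone H3 lysine methyltransferase of heterochromatin in Aspergillus nidulans, stood at 6.20 ± 2.49, 5.60 ± 1.11 and 7.43 ± 0.79 FPKM in control, ΔhepA and ΔlaeA (SD, n = 3). SIR2, named after the yeast deacetylase that silences telomeres, stood at 23.5 ± 1.81, 19.98 ± 10.5 and 13.96 ± 5.76 FPKM. The symbols SWI6 and POT1 name unrelated proteins in different yeasts, so these 2 may not belong to the list.

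Of the 37 genes with a symbol matching secondary metabolism by its letters, 0 lay near an end and 34 were expressed enough to be tested. The match also took names that need not belong there, such as cit1 and AAT2. It took the mitochondrial genes orf1 and orf2 as well, which cannot lie near a nuclear end. The counts are therefore of matched names and not of secondary metabolism. Of those 34, 1 rose in ΔhepA and 0 changed in ΔlaeA by limma, and without adjustment 7 and 6 were under 0.05. Among 25 symbols matched by their letters for enzymes of plant polymers and starch, 1 lay near an end. It was MAN26A, a mannanase name, at 7.07 ± 4.85, 3.11 ± 3.31 and 3.04 ± 1.73 FPKM. This match also took names of regulators, such as xlnR and LAC9_1. Of the 23 tested 0 changed by limma in either strain, with 3 in ΔhepA and 7 in ΔlaeA under 0.05 without adjustment. Among 47 symbols matched for transporters 2 lay near an end, GIT1_1 and gel1, the latter matched by its letters only. Others matched so include PHO85_1 and RGT1, which are not transporter names. Of the 36 tested, 1 fell in ΔhepA and 2 fell in ΔlaeA, and 10 and 16 were under 0.05 without adjustment. The same shares over all genes tested were 0.32% and 1.09% with adjustment and 10.4% and 21.6% without. Symbols cover 2.74% of terminal genes, so these lists say little about what the other terminal genes encode.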

How the data were processed

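Expression had been measured in poly(A)-enriched, stranded libraries, per the labels' protocols. What the authors deposited is a single table of FPKM values as RSEM gives them, each library in its own column. The tools in the submitters' processing notes, whose roles are not given, were STAR 2.7.9a, RSEM 1.3.1, featureCounts 2.0.1, FastQC 0.11.9, cutadapt 3.7, Trimmomatic 0.39 and Trim Galore 0.6.7. Their genome build was not given in the sources used here. Each of the 12941 locus tags was found in the RefSeq gene table (assembly AkawachiiIFO4308_assembly01). Start and end were equal there for 12936, and the remaining 5 have 2 segments. Read totals were not used here. Because FPKM is scaled within each library, abundant transcripts can pull down the values of the rest.

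A gene near an end had its whole span within 100 kb of the outermost gene boundary. The 10009 genes that reached 1 FPKM in 3 or more libraries were fitted as log2(FPKM + 1) with limma 3.58.1 (R 4.3.3). The model held a mean for each strain, fitted to all 9 libraries together with 6 residual degrees of freedom, and used eBayes with a trend. P-values are two-sided, adjusted by Benjamini-Hochberg over all 10009 genes, and called under 0.05. This scale understates changes of low genes. The fit was tested on simulated data. The members, lists and tests were chosen with earlier results of these data known.

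The naming rule took called members, the outermost and the highest gene of each end, the 8 highest with a symbol and the genes at the limit. It added the 3 largest rises and falls per strain whose groups do not overlap and whose higher mean reaches 5 FPKM. Alternatives changed the pseudocount (0.1 or 5), the filter (none, or mean FPKM of 5 or more), the scaling (median-ratio, quantile, TPM) and the model (only 2 groups, no trend, replicate block). Others left out each library in turn, or moved the window to 50 kb, 200 kb or any overlap. Leaving out the 3 libraries that lay apart was added after seeing the data. Tables were handled in Python 3.11.15 with pandas 2.3.3 and numpy 2.4.6, and figures drawn with matplotlib 3.10.9.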

Additional observations from a re-analysis of the deposited data

How the results depend on the processing

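The counts of called terminal genes were fragile, while the low level and high silent share of terminal genes kept their direction in every alternative run. In ΔhepA the count of 2 became 0 with a pseudocount of 0.1, median-ratio scaling, quantile normalization, a fit on 2 groups, the replicate block or without the 3 libraries apart. It became 1 with a pseudocount of 5, no filter (a rise), a mean of at least 5 FPKM, no mean trend or a 50 kb window, and 0 to 4 without any 1 library. Where 1 was called, its share of those tested ran from 0.161% (no filter, 0.108% of all) to 0.746% (50 kb, 0.320% of all). In ΔlaeA the count of 2 became 5 with quantile normalization (3 rises), 7 with TPM scaling, 1 on 2 groups, 1 at 50 kb and 7 at 200 kb, and 0 to 48 without any 1 library. The higher of these counts were near the background. Of those tested, 1.46% were called with quantile normalization (1.56% of all genes tested) and 2.36% with TPM scaling (2.32% of all). At 200 kb it was 0.931% (1.09% of all), and without ΔlaeA replicate 1 it was 14.0% (16.0% of all). Between the deletion strains 0 became 1 without a filter and 0 to 10 without any 1 library. The 10, without ΔlaeA replicate 1, were 2.92% of those tested, against 2.57% of all. Whether replicate numbers pair the samples was not settled by these values. Correlations of same-numbered deviations ran from -0.22 to 0.423, and those of other pairs of libraries between strains from -0.559 to 0.424. The block gave 0, 2 and 0 terminal calls. Over all genes tested it gave 6, 174 and 1, against 32, 109 and 5 without it. The median shift in ΔhepA (-0.08) became 0.045 with median-ratio scaling and 0.040 with quantile normalization, and lay between -0.16 and -0.03 without any 1 library. The ΔlaeA shift (-0.0023) became 0.19 with quantile normalization and lay between -0.13 and 0.10. The silent share in control, ΔhepA and ΔlaeA was 19.2%, 18.2% and 20.8% when silent meant listed at 0, and 19.5%, 18.5% and 20.8% under 0.1 FPKM. It was 64.1%, 67.0% and 65.5% under 5 FPKM, 50.8%, 53.1% and 51.8% at 50 kb, and 34.9%, 36.5% and 37.3% at 200 kb. It was 42.8% to 45.4%, 44.4% to 46.4% and 44.6% to 48.5% without any 1 library of the strain, and 46.4% in ΔhepA and 53.5% in ΔlaeA without the 3 libraries apart, because fewer libraries must be low. The control level gap of -2.80 was -3.60 and -1.56 with pseudocounts of 0.1 and 5, -2.51 with TPM scaling, -3.23 at 50 kb, -2.34 at 200 kb, and -2.85 to -2.76 without any 1 library. The other causes of change were not tested.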

Other observations

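Terminal genes at moderate and high levels varied more between replicates than genes elsewhere of like level. Among genes with a mean of 20 to 100 FPKM the median SD of log2(FPKM + 1) within strains was 0.628 for 62 terminal genes and 0.439 for 3157 genes elsewhere. At 100 FPKM or more it was 0.478 (33 genes) against 0.384 (1942), at 5 to 20 FPKM 0.569 (99) against 0.496 (2539), and at 1 to 5 FPKM 0.540 (113) against 0.537 (1769). These are descriptions without a test, since genes are not replicates.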
